A study of Mus musculus with 721 samples.

Results

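Cytosolic ribosomal protein genes were followed through mouse implantation and the onset of gastrulation in 721 single cells. The set held the rows of the count table on chromosomes 1 to 19 whose symbols name a protein of the cytosolic ribosome, from the Rpl and Rps series, the stalk genes Rplp0, Rplp1 and Rplp2, and Rpsa. This rule found 79 genes among 24483 rows, of which 31 belong to the small subunit and 48 to the large subunit, and 6 are paralogues (Rpl3l, Rpl7l1, Rpl10l, Rpl22l1, Rpl39l and Rps27l). Ribosomal protein genes on the X chromosome were not analysed here.

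All embryos were wild type and of the strain C57Bl/6Babr. At embryonic day (E) 3.5 there were 99 cells from 10 embryo units and at E4.5 there were 105 cells from 5 embryos, both after the trophectoderm had been lysed with antiserum and removed. At E5.5 there were 267 cells from 9 embryos. At E6.5 there were 129 cells from 9 embryos on plates P1, P2 and P3, 39 cells from 2 embryos with no plate in their titles, and 82 cells from 2 embryos titled E6.75. Each cell was picked by hand and its polyadenylated RNA was sequenced as full-length cDNA. Cells labelled double numbered 128, and 9 cells at E3.5 carried no embryo number and were taken as 1 unit. The titles gave 37 embryo units in all, more than the number of embryos the paper states. Whether each unit is a separate embryo is not known. The counts of each class were added up within each embryo that held 3 or more of its cells, which gave 47 sums of 3 to 54 cells and 1476466 to 49484352 counts, and the embryo was the replicate throughout. A level is given as CPM, counts scaled to a common library total with TMM factors. In such sums, fewer cells that express a gene and less RNA per cell cannot be told apart, and p-values measure the spread between these embryos.

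Cells were clustered with the ribosomal protein genes and other genes of translation held out, and clusters at E4.5 and later were named from endoderm, epiblast and streak markers. Summed endoderm markers ranged from 19183 to 30937 CPM in primitive endoderm (PrE)-like cells at E4.5 and from 2684 to 3874 CPM in epiblast-like cells of that stage, with Rbp4 at 0 in both and Apob and Pdgfra also at 0 in the latter. Summed epiblast markers ranged from 14260 to 17055 CPM in the epiblast-like cells and from 6172 to 8611 CPM in the PrE-like cells. Counts per cell ran from 66896 to 3792936 with a median of 692863. E4.5 epiblast-like sums were thin, with 4 or 5 cells each in 4 embryos, and a cluster of 21 E4.5 cells without a clear lineage stayed unnamed.

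Ribosomal proteins form the protein part of the small subunit, which reads the mRNA, and of the large subunit, which joins amino acids. Cells make them in near-equal amounts, and their mRNAs often begin with a cytosine and a run of pyrimidines, the terminal oligopyrimidine (TOP) motif, through which mTOR and LARP1 control their translation. Loss of single ribosomal protein genes in mice gives tissue-specific defects and p53 activation, and the demand for ribosomes is high in the fast-dividing cells of the early embryo.

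The start sites of members that carry the results below are printed to show how the TOP motif sits at some of them and is missing at the annotated start of others. Each line holds 15 bases before and 15 bases from the start annotated by RefSeq on GRCm38.p6, 5′ to 3′ on the gene's strand. Capitals mark the pyrimidine run, and lines without capitals hold no such run at that base. The first 3 genes (Rpl15 at chr14:18270972-18271001, minus strand, Rps27 at chr3:90213634-90213663, minus strand, and Rpl38 at chr11:114668565-114668594, plus strand) begin with it. The others are Rps25 (chr9:44407699-44407728, plus), Rpl5 (chr5:107900513-107900542, plus), Rplp0 (chr5:115559452-115559481, plus), Rpl39l (chr16:10170213-10170242, plus) and Rpl10l (chr12:66284387-66284416, minus).
Rpl15: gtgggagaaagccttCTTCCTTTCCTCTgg
Rps27: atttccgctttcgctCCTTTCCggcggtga
Rpl38: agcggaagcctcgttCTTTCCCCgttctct
Rps25: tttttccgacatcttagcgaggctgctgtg
Rpl5: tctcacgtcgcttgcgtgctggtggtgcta
Rplp0: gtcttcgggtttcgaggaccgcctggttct
Rpl39l: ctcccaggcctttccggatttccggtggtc
Rpl10l: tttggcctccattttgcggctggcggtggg

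A start sequence was at hand for 59 of the 79 genes. A C followed by at least 4 pyrimidines stood at the annotated start in 13 of them (22.0%), against 787 of 25748 genes on chromosomes 1 to 19 (3.06%). It stood there in 4 of 21 translation factors and other TOP-listed genes and in 0 of 69 mitochondrial ribosomal protein genes. Within 3 bases of the start it stood in 25 of 59 (42.4%) and in 13.7% of all genes. No paralogue of the 6 had it at the start itself. A missing motif says only that these letters are not at the annotated base.

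Some members have near-identical copies elsewhere in the genome, and the authors kept only reads that aligned with a mapping quality of at least 20, so reads that fit a copy as well may be lost. The share of a member's windows of 100 bases that occur in another gene's transcript had a median of 39.1%. It was 0% in 9 members, among them Rpl10l, Rpl39l, Rpl3l and Rps27l, and above 75% in 12. Among the genes described below it was 98.4% in Rps27, 80.04% in Rpl23a, 73.5% in Rpl7a, 73.4% in Rpl15, 66.9% in Rps28, 47.2% in Rpl5, 46.3% in Rpl38 and 41.4% in Rps25, and their levels are uncertain to that extent. The share was 40.6% in Rpl22l1, 30.0% in Rplp1, 21.4% in Rpl37a and 18.3% in Rplp0. The table also held 60 ribosomal protein pseudogene rows, which took 0.0402% to 0.35% of counts and are no members.

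Nearly all members were detected in nearly all cells. 68 of 79 had counts in 100% of the 721 cells and 76 in at least 95%, and the 3 exceptions were Rpl39l (82.9%), Rpl10l (57.8%) and Rpl3l (3.61%). Per length, the mean level over the classes was highest for Rpl41, the shortest ribosomal protein, with 9561 CPM per kilobase, followed by Rplp1 (8650) and Rps14 (6920). It was lowest for Rpl3l (0.334), Rpl28 (26.7) and Rpl12 (73.3), with a median of 1175 over the members. Rplp0, the scaffold of the ribosomal stalk, took the most counts, 6.36% of those of all members. It led in E3.5, PrE-like and E5.5 cells (5.43%, 6.19% and 7.17% of the members' counts).

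The levels of most members varied together. Over the 47 sums, each member's level was set against the summed level of all the others, and the rank correlation had a median of 0.866 and was above 0.7 in 62 members. Sums of the same plate and stage share depth and handling, so these values only describe the sums. 3 members lay below 0, Rpl7l1 (-0.098), Rpl39l (-0.052) and Rpl5 (-0.013), and Rpl3l (0.056), Rpl10l (0.163), Rps29 (0.384), Rpl28 (0.46) and Rps25 (0.472) came next from the bottom. The heat map of members by class shows the shared course and these exceptions.

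**Figure D1:**
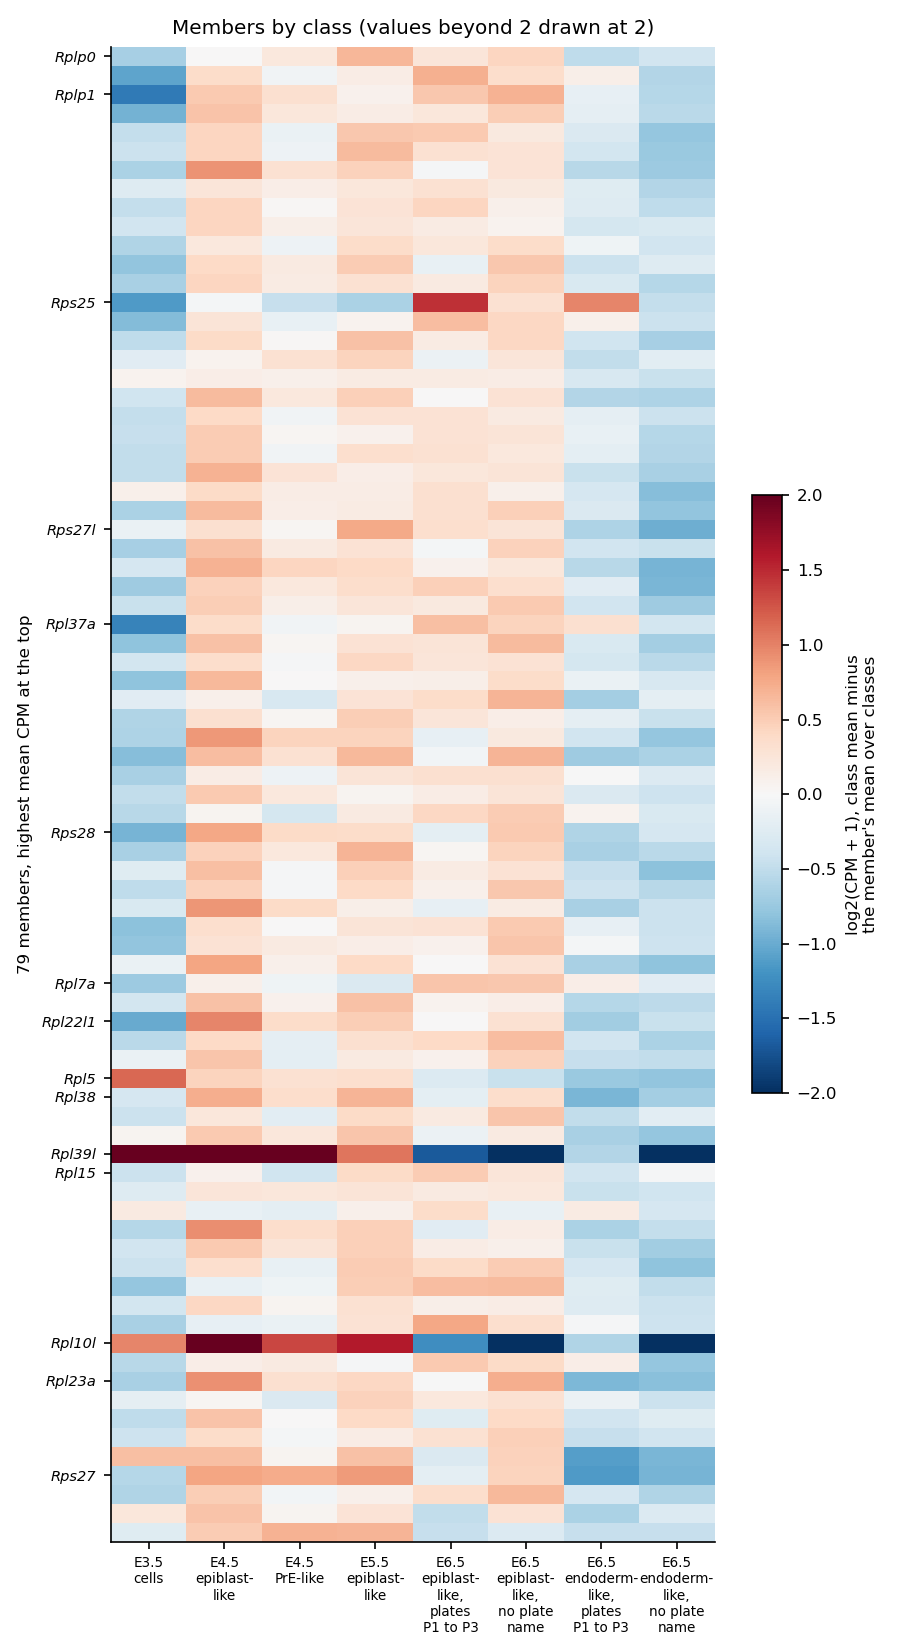
Each row is 1 of the 79 members, in order of mean CPM with 15 of them named, and each column 1 of 8 classes. Colour gives the class mean of log2(CPM + 1) minus the member's mean over the classes, with values beyond 2 drawn at 2. Most rows are blue at E3.5 and in E6.5 endoderm-like cells and red in between, while Rpl39l and Rpl10l are red early and blue at E6.5, Rpl5 is red at E3.5, and Rps25 is red at E6.5 on plates P1 to P3.

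The summed share of the members, their counts as percent of all counts on chromosomes 1 to 19, was 1.996 times as high in the E4.5 epiblast as at E3.5. It was 6.35% ± 1.57 (SD, n = 10 embryo units) at E3.5, with a lowest value of 4.46%, a median of 5.63% and a highest value of 8.50%. The epiblast-like sums of E4.5 stood at 11.7%, 13.6%, 11.6% and 13.7% (mean 12.7% ± 1.17, n = 4), and no embryo of one stage reached the range of the other. The difference of 6.33 percentage points had p = 0.000999, the smallest that an exact two-sided permutation test of these embryos can give, and 0.00999 after Benjamini-Hochberg adjustment over the 10 share comparisons. In PrE-like cells the share was 7.18%, 11.7%, 10.8%, 9.78% and 9.72% (mean 9.83% ± 1.68, n = 5), 3.48 points above E3.5 (exact permutation test, adjusted p = 0.0150), with overlap of the ranges. Plate names do not recur between E3.5 and E4.5, so plate and stage cannot be told apart in these comparisons.

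**Figure D2:**
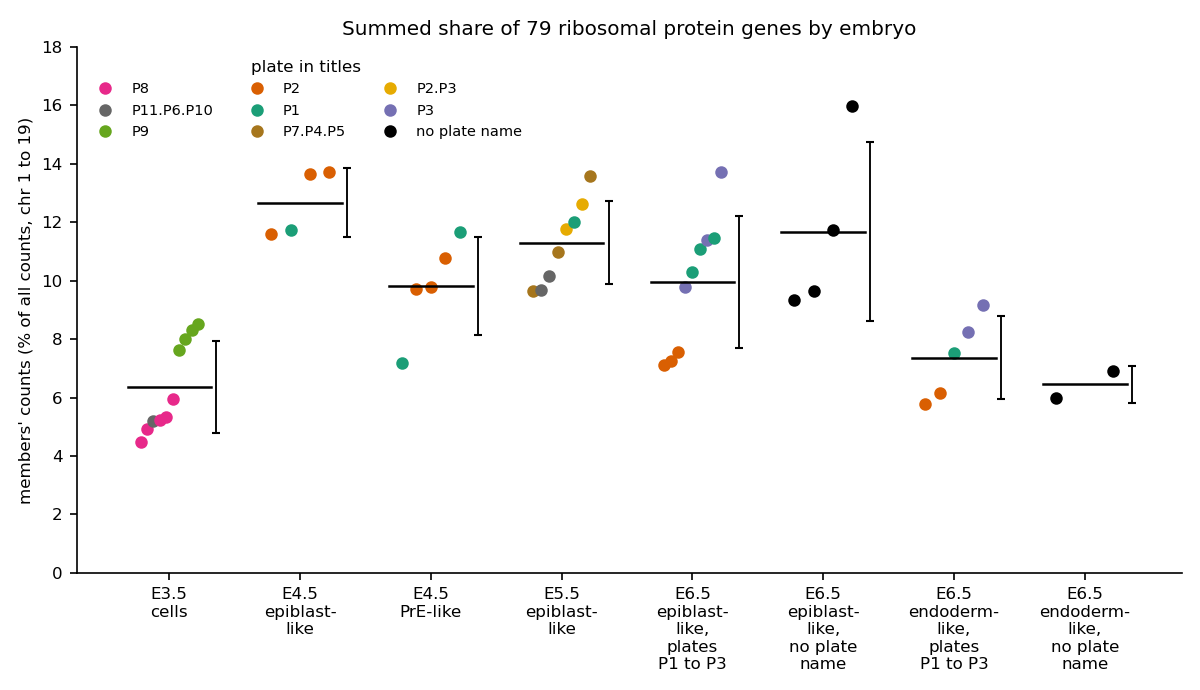
Each point is 1 embryo sum, and the vertical axis gives the members' counts as percent of all counts. Colours mark the plate in the cells' titles, lines the class mean and bars 1 SD. Some plate names recur at different stages in the same colour, and the titles do not say whether these are the same plates. E3.5 sums lie between 4.46% and 8.50% and split by plate, E4.5 epiblast-like sums between 11.6% and 13.7%, and at E6.5 the sums of plate P2 lie lowest.

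After E4.5 the share in the epiblast showed no further difference past the test. It was 9.65% to 13.6% (median 11.4%) over 8 embryos at E5.5, a mean of 11.3% ± 1.43, a difference of -1.37 points from the E4.5 epiblast (adjusted p = 0.205, exact permutation test). On plates P1 to P3 at E6.5 it was 7.13% at the lowest, 10.3% at the median and 13.7% at the highest (mean 9.97% ± 2.26, n = 9), a difference of -1.34 points from E5.5 (adjusted p = 0.213). In the 4 E6.5 embryos without a plate name it was 11.7%, 16.0%, 9.64% and 9.35% (mean 11.7% ± 3.06). That mean stood 0.37 points above E5.5 (adjusted p = 0.812) and 1.71 points above plates P1 to P3 (adjusted p = 0.298). The highest of the 4, replicate 2 without plate name, rests on 6 cells, and without it the value against E5.5 turned to -1.06 points. No cell of this class labelled single was above 15.8%, and 2 cells labelled double stood at 20.3% and 20.7%. The 16.0% of replicate 2 thus includes at least 1 of these. With cells labelled single only, the value against E5.5 was -0.920 points.

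The mean share of endoderm lay below that of epiblast at E4.5 and at E6.5, though neither difference passed the threshold after adjustment. PrE-like cells at E4.5 differed from epiblast-like cells by -2.85 points (p = 0.0238, adjusted p = 0.0595, exact permutation test). Within the 4 embryos with both classes the difference was -3.31 ± 1.23 points (range -4.56 to -1.81), lower in 4 of 4, with p = 0.125, the smallest that 4 pairs allow. At E6.5 the endoderm-like share on plates P1 to P3 was 7.51% on P1, 5.78% and 6.16% on P2, and 8.24% and 9.15% on P3 (mean 7.37% ± 1.41, n = 5). It differed from the epiblast-like share by -2.60 points (p = 0.0430, adjusted p = 0.0794), and within embryos the difference was -1.89 ± 0.650 points, lower in 5 of 5 (p = 0.0625, the smallest that 5 pairs allow). The order also stood within each plate, at 7.51% against 10.9% on P1, 5.97% against 7.32% on P2 and 8.70% against 11.6% on P3. E6.5 endoderm-like cells differed from the PrE-like cells of E4.5 by -2.46 points (p = 0.0476, adjusted p = 0.0794). In the 2 embryos titled E6.75 the endoderm-like share was 5.99% and 6.90%, and at E5.5 it was 5.83% in 5 endoderm-like cells of 1 embryo and 14.6%, 5.59% and 5.45% in single cells of 3 others.

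The means of both subunits were higher in the E4.5 epiblast than at E3.5. The small subunit took 2.98% of counts at E3.5 and 5.91% in the E4.5 epiblast, and the large subunit 3.37% and 6.77%. The ratio of large to small subunit counts ranged from 0.846 in a sum of E6.5 plate P3 to 1.32 in one of E3.5 plate P8. The unnamed E4.5 cluster had shares of 10.7% and 9.67% in its embryos of plate P1 and of 7.69% and 7.35% in those of plate P2, and the 25 primitive streak-like cells of E6.5, 24 of them from 1 embryo, one of 9.97%.

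Single members rose widely from E3.5 to the E4.5 epiblast. 55 of 79 rose, where 12.6% of the 15332 genes tested did, and 0 of 79 fell, where 6.18% of genes did (quasi-likelihood test in edgeR, p-values adjusted after Benjamini and Hochberg over all genes and called at 0.05 or below). At an unadjusted p under 0.05, 1 member was lower, and DESeq2 called 1 lower. The median log2 fold change of the members was 0.93, with the middle part of the list between 0.68 and 1.19, while the median of all genes was 0.00. In 46 members every E4.5 epiblast-like sum lay above every E3.5 sum. This was not counted over all genes, so it describes the members only. The small subunit had 23 risers of 31 and the large subunit 32 of 48.

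**Figure D3:**
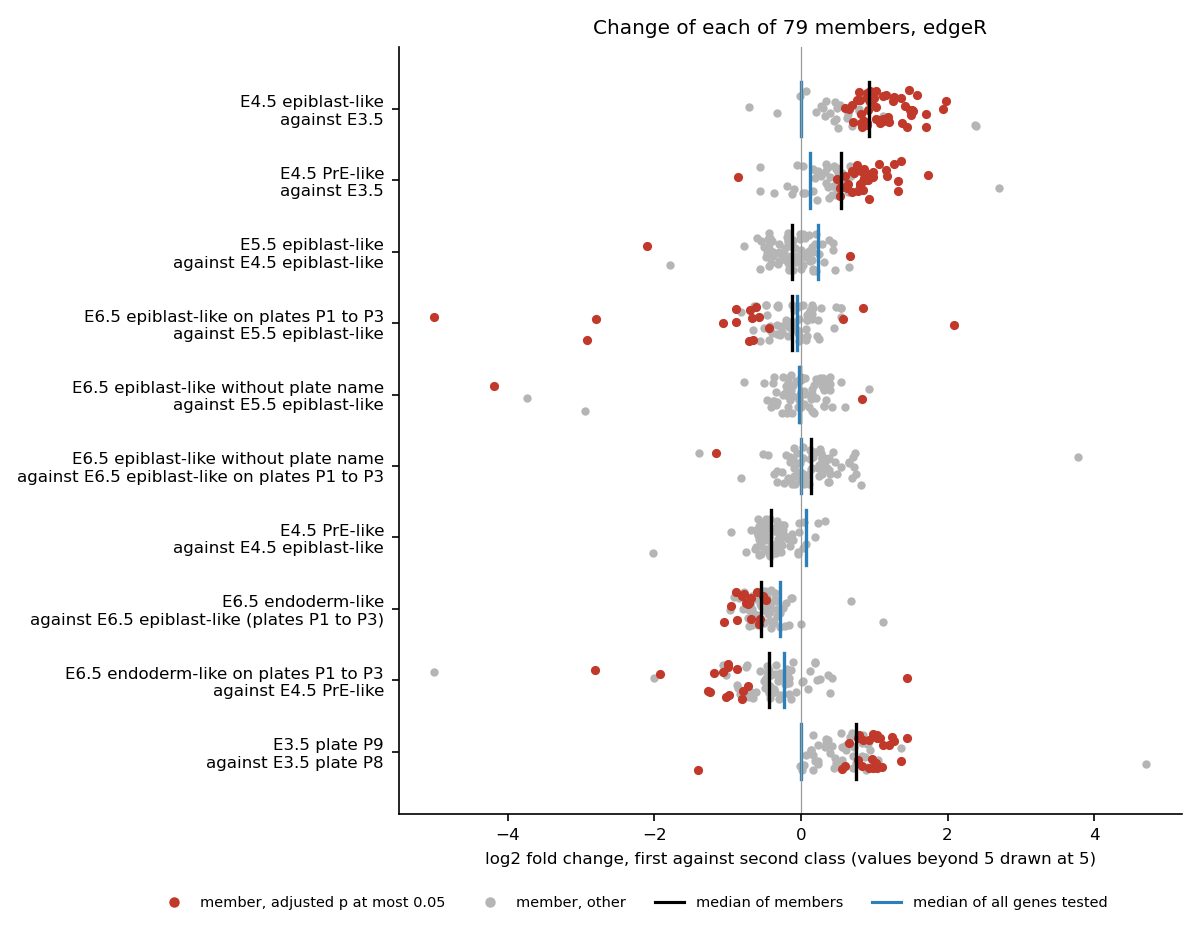
Each point is the log2 fold change of 1 member in 1 comparison, red where its adjusted p is at most 0.05, with values beyond 5 drawn at 5. Black lines mark the members' median and blue lines the median of all genes tested. The cloud stands to the right of the blue line in the E4.5 and plate P9 comparisons, close to it from E4.5 to E6.5 epiblast, and to its left in the endoderm comparisons.

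The leading large-subunit risers were a paralogue and a stalk protein. Rpl22l1, a paralogue of the RNA-binding protein Rpl22, stood at 77.9, 187 and 393 CPM (lowest, median and highest) at E3.5 and at 636, 840, 759 and 1226 CPM in the E4.5 epiblast. The groups did not overlap, and the log2 fold change was 1.98 ± 0.34 (SE, edgeR adjusted p = 2.75e-05). Rplp1, an acidic protein of the stalk that draws elongation factors to the ribosome, stood at 610, 1167 and 2481 CPM at E3.5 and at 4668, 6353, 5219 and 6448 CPM in the E4.5 epiblast. Its log2 fold change was 1.94 ± 0.28 (edgeR adjusted p = 1.11e-06), again without overlap. In the small subunit, Rps28, which lies at the mRNA exit, stood at 130, 348 and 587 CPM at E3.5 and at 887, 1282, 934 and 1557 CPM in the E4.5 epiblast. Its log2 fold change was 1.71 ± 0.27 (edgeR adjusted p = 6.65e-06), and its groups stood apart too.

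In PrE-like cells 36 members were higher than at E3.5 (14.2% of all genes were) and 1 was lower (6.4% of all genes were). The members' median was 0.55 and that of all genes 0.13. 4 members were higher without overlap, which was not counted over all genes. Rplp1 led again with 3080, 5639, 5955, 4671 and 5172 CPM, a log2 fold change of 1.73 ± 0.27 (edgeR adjusted p = 2.6e-06). Rpl22l1 had 273, 495, 456, 758 and 854 CPM and a log2 fold change of 1.37 ± 0.32 (edgeR adjusted p = 0.00174), with overlap. Rps27, a zinc-finger protein of the small subunit, had 71.0, 131, 107, 85.2 and 91.3 CPM against 15.0, 40.9 and 65.7 at E3.5, which did not overlap (log2 fold change 1.33 ± 0.31, edgeR adjusted p = 0.00141). Without E4.5 replicate 2 the number of members called was 21.

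Rpl5, which carries a small ribosomal RNA into the ribosome together with Rpl11 and can bind the p53 inhibitor Mdm2, went the other way. It stood at 337, 781 and 2009 CPM at E3.5 and at 280, 620, 520, 488 and 531 CPM in PrE-like cells, which overlap, a log2 fold change of -0.85 ± 0.25 (edgeR adjusted p = 0.011). The 5 highest E3.5 values were those of plate P8. With plate P9 alone for E3.5 the log2 fold change was -0.16 (edgeR adjusted p = 0.655), and without E4.5 replicate 1 the adjusted p was 0.0664. In the E4.5 epiblast the log2 fold change of Rpl5 against E3.5 was -0.71 ± 0.27 (edgeR adjusted p = 0.056), which missed the threshold.

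The E3.5 plates themselves also differed in the members. The share was 5.17% ± 0.545 in the 5 embryos of plate P8, 8.11% ± 0.389 in the 4 of plate P9 and 5.21% in the unit of unnumbered cells from plate P11.P6.P10. Plates P9 and P8 differed by 2.94 points without overlap (p = 0.00794, the smallest that an exact permutation test allows here, adjusted p = 0.0265). In a fit with E3.5 split by plate, 25 members were higher on P9 (2.32% of 16868 genes were) and 1 was lower (0.741% of genes). In 60 members all P9 embryos lay above all P8 embryos, which was not counted over all genes. The members' median was 0.75 against 0.00 for all genes. The counts of members called were 16 without replicate 7 and 38 without replicate 5.

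Among single members, Rpl23a, which sits where the new protein leaves the ribosome, had 19.4, 29.9, 20.4, 41.9 and 19.11 CPM on P8 and 64.7, 89.9, 78.0 and 85.4 CPM on P9 (log2 fold change 1.44 ± 0.37, edgeR adjusted p = 0.0189, and 0.0503 without replicate 7). Rpl37a, of the large subunit, had 222, 293, 201, 241 and 280 CPM on P8 and 785, 739, 676 and 666 CPM on P9 (1.37 ± 0.30, edgeR adjusted p = 0.00575). Rplp1 had 1058, 1193, 610, 655 and 788 CPM on P8 and 2419, 2481, 2377 and 2008 CPM on P9 (1.27 ± 0.26, edgeR adjusted p = 0.00311). All 3 were apart without overlap. Rpl5 had 2009, 1221, 1138, 992 and 967 CPM on P8 and 596, 549, 498 and 509 CPM on P9, the opposite order (-1.40 ± 0.22, edgeR adjusted p = 6.46e-05). In the unnumbered unit of the third plate, whose members' share lay with plate P8, Rpl5 stood at 337 CPM.

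**Figure D4:**
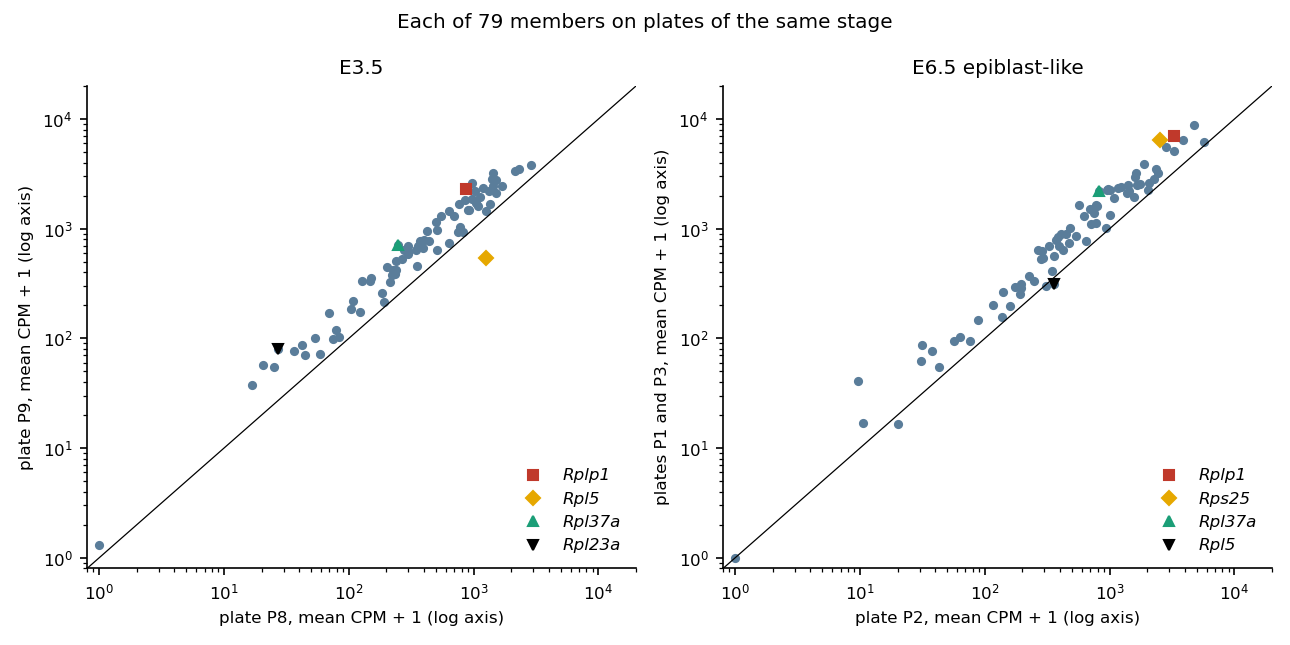
Each point is 1 of the 79 members, with its mean CPM + 1 on 1 plate against another of the same stage, on log axes, and the diagonal marks equality. At E3.5 nearly all members lie above the line (higher on P9 than on P8) and Rpl5 lies below it. In E6.5 epiblast-like cells most lie above it (higher on P1 and P3 than on P2), Rps25 among them.

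Other measures moved with the plates at E3.5. Cells of P9 had a median of 481626 counts and 6290.5 genes detected and cells of P8 903546 counts and 5625 genes. Summed epiblast markers were 10793 to 13806 CPM on P9, 5679 to 8610 CPM on P8 and 9420 CPM in the unnumbered unit, endoderm markers 1065 to 2482, 619 to 1399 and 957 CPM, and trophoblast markers, with Ascl2 at 0, 454 to 894, 271 to 1035 and 1069 CPM. Across cells the share and the count total had a rank correlation of -0.65 over all 99 E3.5 cells, -0.54 over the 74 of P9 and -0.20 over the 16 of P8. The part of these measures in the result was not tested. Set against P9 alone, 12 members rose to the E4.5 epiblast with a median of 0.49, and the share was 4.57 points higher without overlap (p = 0.0286, the smallest that an exact permutation test of 4 against 4 embryos can give, adjusted p = 0.107). PrE-like cells then had 2 members higher, a median of 0.09 and a share 1.72 points higher (adjusted p = 0.171). Set against P8 alone, the counts were 63 and 50. The shares of all genes called in these fits are not given here, so the counts cannot be set beside a background. With sums of at least 5 cells, 5 members were called in PrE-like cells. Just 1 E4.5 epiblast-like and 5 E3.5 embryos remain under that limit, and the 0 calls it gives in the E4.5 epiblast say nothing about the risers.

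Between the lineages at E4.5 no member passed the test in the fit over all classes. 0 of 79 were higher in PrE-like than in epiblast-like cells (2.92% of all genes were) and 0 were lower (2.2% of all genes were), with 8 lower and 0 higher at an unadjusted p under 0.05 and 1 lower by DESeq2. 73 of 79 had a negative log2 fold change, with a median of -0.40 against 0.07 for all genes. 13 members were lower without overlap, which was not counted over all genes. With the embryo as a block in the 4 embryos that held both classes, 26 of 78 members tested were lower and 0 higher (median -0.47), where 560 of 10060 genes were lower and 850 higher (median 0.23). In the same embryos without the block, 8 members were lower, and 559 genes. The largest differences in that fit were Rpl10l (-1.99 ± 0.27, edgeR adjusted p = 0.00205), Rpl39l (-0.93 ± 0.18, edgeR adjusted p = 0.00972) and Rpl24 (-0.86 ± 0.18, edgeR adjusted p = 0.0155). Both paralogues thus headed the list, and Rpl24 is a late-joining large-subunit protein whose mutation gives the mouse belly spot and tail.

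From the E4.5 to the E5.5 epiblast 1 member rose (2.03% of all genes did) and 1 fell (2.45% of all genes did). The members' median was -0.12 and that of all genes 0.24. The riser was Rplp0, at 5351, 5334, 4649 and 5118 CPM at E4.5 and at 6344, 8179 and 9978 CPM (lowest, median and highest of 8) at E5.5. The stages did not overlap, and the log2 fold change was 0.67 ± 0.15 (edgeR adjusted p = 0.00362). The faller was Rpl39l, described with the paralogues.

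From E5.5 to the E6.5 epiblast on plates P1 to P3, 3 members rose (7.46% of all genes did) and 13 fell (8.98% of all genes did). The median was -0.13, against -0.05 for all genes, and the changes of single members ran up to 2.09. The 13 were Rpl3l, Rpl10l, Rpl39l, Rps27, Rps29, Rpl38, Rpl36, Rps23, Rpl13, Rpsa, Rpl5, Rps2 and Rplp0. The number that fell was 7 without E5.5 replicate 1 or without E6.5 replicate 6, 25 without E6.5 replicate 9 and 8 without plate P2.

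Rps25, a small-subunit protein used by some RNAs that start translation at internal sites, rose most of all members. It stood at 938, 1258 and 1503 CPM at E5.5. At E6.5 it stood at 5083, 4182 and 5832 CPM on P1, at 2288, 2633 and 2652 CPM on P2 and at 5044, 6487 and 11978 CPM on P3. Every plate lay above E5.5 without overlap, and the log2 fold change was 2.09 ± 0.24 (edgeR adjusted p = 7.74e-09). The embryos without a plate name had 1919 and 4111 CPM and those titled E6.75 had 1555 and 1611 CPM, of which all but the 4111 CPM of replicate 2 lay below every plate (log2 fold change against plates P1 to P3 -1.16 ± 0.30, edgeR adjusted p = 0.034). That call was lost on leaving out any of 6 embryos, with adjusted p up to 0.171. The 2 E6.75 embryos are among the 6.

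In E6.5 endoderm-like cells Rps25 was above its E4.5 level. It had 3351, 2069, 2782, 4397 and 5756 CPM on plates P1 to P3 at E6.5 and 873, 1607, 1386, 1372 and 1518 CPM in E4.5 PrE-like cells. The groups were apart, with a log2 fold change of 1.44 ± 0.30 (edgeR adjusted p = 0.000984). Against the epiblast-like cells of those plates it was -0.48 ± 0.26 (edgeR adjusted p = 0.215). In endoderm-like cells titled E6.75 it had 1148 and 1541 CPM, inside the E4.5 range. Every embryo titled E6.75 lacks a plate name, so at that age the titled age and the missing plate name cannot be told apart, and no plate is titled E6.75.

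Rpl7a, of the large subunit, rose in the E6.5 epiblast too. It had 322, 395 and 548 CPM at E5.5 and 607, 725 and 936 CPM at E6.5, without overlap (log2 fold change 0.85 ± 0.17, edgeR adjusted p = 0.000541). It was also higher in the embryos without a plate name, with 750, 1040, 607 and 517 CPM (0.84 ± 0.21, edgeR adjusted p = 0.0274), a call lost without E5.5 replicate 7 or without replicate 1 or 2 of those embryos (adjusted p up to 0.26).

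In the embryos without a plate name, Rpl7a was the 1 member above E5.5 (0.907% of all genes were) and Rpl39l the 1 below (0.496% of all genes were). The median was -0.01, and turned to 0.01 and 0.03 with relative log expression factors and with library size alone. Against plates P1 to P3 0 members were higher (0.457% of all genes were, with 6 members at an unadjusted p under 0.05 and 0 by DESeq2) and Rps25 was the 1 that was lower (0.633% of all genes were). Depth differed as well. Cells of plate P2 had a median of 1203731 counts, those of P1 505902 and those of P3 692389.

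Plate P2 stood low within the E6.5 epiblast. The share was 10.9% ± 0.590 on P1, 7.32% ± 0.231 on P2 and 11.6% ± 1.98 on P3, with 3 embryos each. 75 of 79 members had a lower mean on P2 and 49 lay below P1 and P3 without overlap, as did 1.70% of all genes, with 0 above. The median log2 ratio was -0.74. At E6.5 replicate 9, on plate P3 with 7 cells, held the highest share of its class, 13.7%.

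At E6.5 the endoderm-like cells of plates P1 to P3 had 16 members below the epiblast-like cells (6.27% of all genes were) and 0 above (4.19% of all genes were, with 1 member at an unadjusted p under 0.05 and 0 by DESeq2). The members' median was -0.54 and that of all genes -0.29, and 76 of 79 were negative. Among them were Rpl15 and Rps27l. Rpl15, of the large subunit core, had 212, 153, 299, 221 and 171 CPM in endoderm-like and 279, 374 and 645 CPM (lowest, median and highest of 9) in epiblast-like sums (log2 fold change -0.89 ± 0.20, edgeR adjusted p = 0.00414), and 1 endoderm-like sum reached into the epiblast-like range. Rps27l, a paralogue of Rps27 which p53 induces in human cells, had 926, 677, 635, 986 and 1473 CPM against 733, 1310 and 6209 CPM (-0.95 ± 0.31, edgeR adjusted p = 0.039). The highest epiblast-like value of Rps27l was replicate 9, and without it the edgeR adjusted p was 0.152. The call was also lost without replicates 2, 5, 6 or 7.

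Rplp0 separated the E6.5 classes without overlap, at 3010, 3607, 3797, 3230 and 4199 CPM in endoderm-like and at 4418, 5826 and 7157 CPM in epiblast-like sums (log2 fold change -0.75 ± 0.13, edgeR adjusted p = 0.000425). It was the 1 of 77 members tested that was still called with the embryo as a block in the 5 embryos with both classes (-0.71 ± 0.11, edgeR adjusted p = 0.0215), where 26 of 8920 genes were called lower and 61 higher. In that fit 4 members were positive and the median was -0.34, and Rpl15 had -0.86 (edgeR adjusted p = 0.199). Without the block the same embryos also gave 1. At E4.5 it had 4900, 7002, 6168, 6007 and 5263 CPM in PrE-like cells, with overlap with the epiblast (0.20 ± 0.16, edgeR adjusted p = 0.518). The difference between the lineage changes at E6.5 and E4.5 was -0.95 ± 0.21 (edgeR adjusted p = 0.00946), the 1 lower member of that test (2% of all genes were), with 0 higher (0.802% of all genes, with 1 member at an unadjusted p under 0.05 and 0 by DESeq2). The count of members below the epiblast at E6.5 was 2 without plate P2, 2 without replicate 2 or 5, 5 without replicate 6 and 10 without replicate 9. Epiblast-like sums of plates P1 to P3 held 878 to 9514 CPM of endoderm markers and endoderm-like sums 15004 to 28764 CPM. Epiblast markers were 3574 to 7608 CPM in the former and 1252 to 3057 CPM in the latter. The highest endoderm value of an epiblast-like sum, on P2, lay above all epiblast values of that plate (3574 to 4939 CPM). On P3 the highest was 7839 CPM, also above that plate's epiblast values (4651 to 7608 CPM). On P1 endoderm markers (1416 to 3498 CPM) lay below epiblast markers (4005 to 4856 CPM). The part of these markers in the results was not tested.

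Against E4.5 PrE-like cells, E6.5 endoderm-like cells had 14 members lower (8.67% of all genes were) and 1 higher (5.44% of all genes were), the latter Rps25. The median was -0.43 against -0.22 for all genes. Rps27 had 24.2, 28.5, 24.6, 19.001 and 31.4 CPM at E6.5, below its 71.0 to 131 CPM at E4.5 without overlap (log2 fold change -1.92 ± 0.38, edgeR adjusted p = 0.00056). Rpl38, whose loss in mice alters vertebral patterning, had 151, 121, 116, 195 and 245 CPM at E6.5 and 255, 546, 409, 374 and 416 CPM at E4.5, also apart (-1.27 ± 0.31, edgeR adjusted p = 0.00463). Rpl39l was the third of the leading fallers. The count that fell was 5 without E4.5 replicate 2, 7 without E6.5 replicate 2 or 6, 22 without replicate 8 and 5 without plate P2.

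**Figure D5:**
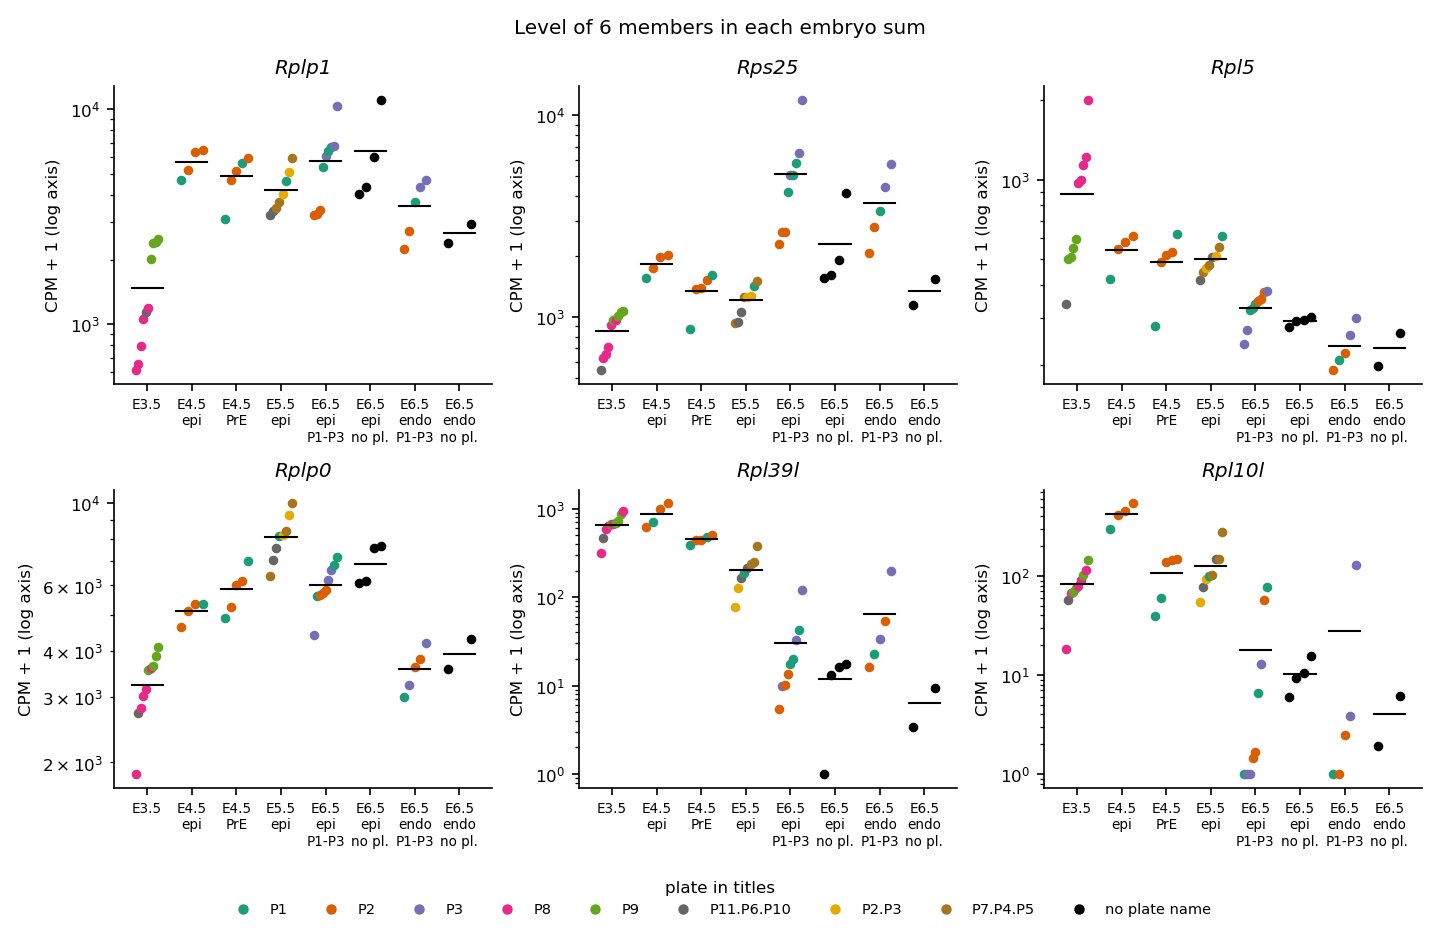
Levels of 6 members in each embryo sum as CPM + 1 on log axes, with the plate names of the titles in colour and lines at the class means. Rplp1 lies between 610 and 2481 CPM at E3.5 and between 4668 and 6448 CPM in the E4.5 epiblast, Rps25 is highest at E6.5 on plates P1 to P3, Rpl5 at E3.5 on plate P8 and Rplp0 at E5.5, while Rpl39l and Rpl10l fall to near 0 in most E6.5 sums.

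Of the 6 paralogues, Rpl22l1 and Rps27l varied with the other members (rank correlations 0.816 and 0.713), unlike Rpl39l, Rpl10l, Rpl3l and Rpl7l1. Rpl39l, the autosomal paralogue of Rpl39 known from male germ cells, was present in every E3.5 cell and every epiblast-like and PrE-like E4.5 cell. It was present in 56.9% of E6.5 epiblast-like cells of plates P1 to P3. It stood at 314, 670 and 935 CPM at E3.5, at 714, 1147, 620 and 999 CPM in the E4.5 epiblast and at 75.6, 198 and 376 CPM at E5.5. The E4.5 and E5.5 epiblast did not overlap (log2 fold change -2.10 ± 0.58, edgeR adjusted p = 0.0234), though the call was lost without E4.5 replicate 3 (adjusted p = 0.106) or 5 (adjusted p = 0.0711). At E6.5 it was at 4.38, 16.5 and 120 CPM on plates P1 to P3 (-2.79 ± 0.50 against E5.5, edgeR adjusted p = 8.43e-05) and at 0, 12.4, 16.4 and 15.2 CPM without plate name (-4.19 ± 0.76, edgeR adjusted p = 0.000649). Only the highest P1 to P3 value, replicate 9, reached into the E5.5 range. PrE-like cells had 386, 475, 502, 438 and 442 CPM and E6.5 endoderm-like cells 22.1, 52.8, 15.3, 197 and 33.1 CPM, again apart (-2.81 ± 0.66, edgeR adjusted p = 0.00337).

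Rpl10l, an intronless copy of X-linked Rpl10 known from spermatocytes, was highest in the E4.5 epiblast. It had 301, 540, 414 and 451 CPM there, 39.0, 58.7, 148, 139 and 143 CPM in PrE-like cells, and 53.4, 101 and 275 CPM at E5.5. On plates P1 to P3 at E6.5 it had 0, 0.689 and 76.6 CPM (lowest, median and highest), with 0 in replicates 1, 7 and 9 (log2 fold change against E5.5 -2.92 ± 0.89, edgeR adjusted p = 0.0192). The groups overlap, since replicates 2 and 4 lay inside the E5.5 range. The share of cells with a count fell from 79.9% at E5.5 to 18.6% and 22.9% in the E6.5 epiblast with and without plate names. 128.7 CPM in the endoderm-like sum of replicate 7 stood against at most 2.85 CPM in the other 4.

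Rpl3l, the skeletal and heart muscle paralogue of Rpl3, was all but absent. It had 342 counts in 11 of 259 epiblast-like cells at E5.5, or 1.58 CPM over the group, and 0 of 89571193 counts in the 102 E6.5 cells of plates P1 to P3. Against a floor of 3 counts over the group (0.0335 CPM) it was at least 47.1-fold lower on those plates, for counting error only. In E6.5 epiblast-like cells without plate name it had 19 counts in 2 of 83 cells (2.41% of cells, against 4.25% at E5.5). DESeq2 gave it an adjusted p of 0.0623 and edgeR one of 0.00675. Rpl22l1 per length stood at 0.404 ± 0.113 of Rpl22 at E3.5, 0.726 ± 0.146 in the E4.5 epiblast and 0.892 ± 0.279 at E5.5. Rpl7l1, tied to ribosome assembly rather than to the finished ribosome, stood at 0.134 ± 0.0356 of Rpl7 at E3.5 and 0.0593 ± 0.0125 in the E4.5 epiblast. Rps27l exceeded Rps27 per length by 9.31 to 48.7 times at E5.5 and E6.5 in the epiblast, a ratio that rests on the 98.4% of Rps27 windows shared with other genes.

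Of 16 members known from mouse mutants, human ribosome disorders or p53 control, 12 rose from E3.5 to the E4.5 epiblast and 0 fell, with a median of 0.90, beside 55 of all 79 members and 12.6% of all genes that rose. Rpsa, the laminin receptor whose loss leaves people without a spleen, rose by 1.203 ± 0.26 on the log2 scale (edgeR adjusted p = 0.00057), from 1244 ± 562 CPM (SD, n = 10) to 2865 ± 606 CPM (n = 4). Rpl11, the partner of Rpl5, rose by 1.17 ± 0.23 (edgeR adjusted p = 0.000177), from 303 ± 102 to 679 ± 54.0 CPM. Rps19, the gene most often mutated in Diamond-Blackfan anaemia, rose by 0.90 ± 0.19 (edgeR adjusted p = 0.000656), and Rps14, lost in a form of myelodysplasia, by 0.90 ± 0.23 (edgeR adjusted p = 0.00413). Those not past the test were Rpl5 (-0.71), Rps6 (0.21), Rpl27a (0.48) and Rpl10a (0.79), and the others were Rpl29 (0.61), Rplp0 (0.66), Rpl24 (0.69), Rps20 (0.93), Rps7 (0.95), Rpl26 (1.0025), Rpl38 (1.07) and Rps25 (1.10). In PrE-like cells 5 of the 16 were higher than at E3.5 and 1 lower, beside 36 and 1 of all members and 14.2% and 6.4% of all genes. Between the E6.5 lineages 3 were lower in endoderm, beside 16 of all members and 6.27% of all genes, namely Rplp0, Rps14 (-0.81 ± 0.24, edgeR adjusted p = 0.0235) and Rps19 (-0.57 ± 0.19, edgeR adjusted p = 0.0496).

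Genes that build or drive ribosomes are set beside the 12.6% of all genes that rose and the 6.18% that fell from E3.5 to the E4.5 epiblast, with a median of 0.00. From E3.5 to the E4.5 epiblast, 7 of 102 ribosome biogenesis factors rose and 4 fell (median -0.06), among them Nop10 (1.36 ± 0.27, edgeR adjusted p = 0.00025) and Gar1 (-1.38 ± 0.47, edgeR adjusted p = 0.0316), both of the complex that modifies ribosomal RNA. Of 28 translation factors and other genes listed for a TOP start, such as Nap1l1, 5 rose and 0 fell (median 0.17). The elongation factor gene Eef1b2 (1.24 ± 0.23, edgeR adjusted p = 7.88e-05) and the initiation factor gene Eif3k (0.81 ± 0.26, edgeR adjusted p = 0.0204) led. Of 76 mitochondrial ribosomal protein genes 5 rose and 2 fell (median -0.13), with Mrpl13 at 1.32 and Mrps7 at -1.40. Of 27 mTOR, LARP1 and MYC regulators 1 rose and 3 fell (median -0.09), with Akt1s1, an mTOR inhibitor, at -1.83 and Rheb, an mTOR activator, at -1.64 (edgeR adjusted p = 0.0447 and 0.000633). Eif4ebp1, the translation repressor that mTOR inactivates, was lower in PrE-like than in epiblast-like cells (-2.37 ± 0.24, edgeR adjusted p = 9.01e-09). Between the E6.5 lineages, 6.27% of all genes were lower in endoderm and 4.19% higher, with a median of -0.29. There 18 of 102 biogenesis factors were lower in endoderm (median -0.53), and 9 of the 28 TOP-listed genes (median -0.47). So were 5 of 76 mitochondrial ribosomal protein genes (median -0.22) and 2 of 27 regulators (median -0.40), with 0 higher in any of the lists. The lower genes included Polr1e, of RNA polymerase I (-2.72), Nle1 (-3.08), Pabpc4 (-1.47), Nap1l1 (-1.01), Mrps27 (-2.09), Mrps5 (-1.42), Mtor (-2.15) and Eif4ebp1 (-0.92). On plate P9 against P8 at E3.5, 2.32% of all genes were higher and 0.741% lower. There 2 of 102 biogenesis factors, 2 of the 28 TOP-listed genes and 1 of 76 mitochondrial ribosomal protein genes were higher. Of the 27 regulators 1 was lower. Members were also set apart by their start motif. In the E4.5 epiblast against E3.5 the median was 1.03 with it (10 of 13 rose), 0.92 without it (30 of 46) and 0.92 where no sequence was at hand (15 of 20).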

How the data were processed

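Per the labels and the study's methods, full-length cDNA of single cells was sequenced in paired reads of 100 bases, trimmed with Trim Galore 0.4.3, aligned to GRCm38 with HISAT2 2.0.5 (versions from the submitters' processing notes), filtered to primary alignments with mapping quality 20 or higher, and assigned to genes in SeqMonk. The authors removed cells with few genes or many mitochondrial reads and trophoblast cells. The deposited table gives whole read counts for each gene in each cell, to which no normalization was applied. Intervals and floors cover counting error only, since the reads carry no molecular identifiers.

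The members and lists were chosen with earlier results of these data known. Stage, embryo and plate came from the titles. Cells were clustered in Python 3.11.15 (scikit-learn 1.9.0) after SC3's steps, with 8 clusters over all cells and 5 at E6.5. Sums of at least 3 cells per class and embryo were fitted together with edgeR 4.0.16 in R 4.3.3 (TMM, filterByExpr, quasi-likelihood test, Benjamini-Hochberg adjustment over 15332 genes). Plates P9 and P8 were compared in a second fit of E3.5 split by plate (16868 genes). Shares were compared with exact two-sided permutation tests. On simulated counts over 15332 genes, with 200 genes changed 4-fold, 21 of 30 changed genes above 100 CPM were recovered for E4.5 epiblast-like against E3.5 and 10 of 27 for PrE-like against epiblast-like cells. Alternatives were DESeq2 1.42.0, relative log expression (RLE) factors, TMM without the members, library size alone, no low-count filter, other sums, clusters, cells and embryos, and the embryo as a block. Same-numbered classes come from the same embryo, so the block pairs true partners.

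In each comparison the 3 called members that rose most and the 3 that fell most are named, as are the highest and lowest members per length, the paralogues, the mutant list and the 2 most changed genes of other lists. Rplp0 and Rps14 at E6.5, the members lowest in rank correlation and the levels on plates were singled out after their values were seen. Some members that the rule names are not reported here.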

Additional observations from a re-analysis of the deposited data

Results flagged for a closer look

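Of 112 groups of 4 to 10 embryos tested for a member's value that stands apart from the rest (Dixon's ratio of the gap to the range, above its 95% critical value), 20 did so, and chance alone gives about 1 in 20. Most came from 2 embryos. On plates P1 to P3 at E6.5, replicate 9 (7 epiblast-like cells, plate P3) was the highest of 9 for Rps27l (6209 CPM against 733 to 1716 CPM, ratio 0.82), Rpl39l (120 against 4.38 to 41.9 CPM, 0.675), Rpl23a (160 against 50.3 to 92.4 CPM, 0.615), Rps27 (88.1 against 30.2 to 52.9 CPM, 0.608), Rpl22l1 (1116 against 239 to 611 CPM, 0.575), Rpl38 (484 against 168 to 303 CPM, 0.571), Rps25 (11978 against 2288 to 6487 CPM, 0.567) and Rplp1 (10352 against 3227 to 6732 CPM, 0.508). Replicate 7 of these plates was highest for Rpl15 (645 against 279 to 439 CPM, 0.562). The epiblast-like sum of replicate 9 had the lowest TMM factor of all sums, 0.694, against 0.863 to 1.13 in the others. A low factor raises every CPM value of a sum, so the flags of replicate 9 share it. The members' share of counts in that sum, which uses no such factor, was 13.7%, also the highest of its class. The part of the factor in these flags was not tested.

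Replicate 2 without plate name (6 epiblast-like cells, with at least 1 labelled double) was the highest of 4 for Rps27l (3002 against 1258 to 1325 CPM, ratio 0.962), Rpl22l1 (814 against 435 to 470 CPM, 0.91), Rpl37a (2503 against 1175 to 1328 CPM, 0.884), Rps28 (1725 against 664 to 814 CPM, 0.858) and Rps25 (4111 against 1555 to 1919 CPM, 0.857). Among endoderm-like sums of plates P1 to P3, replicate 7 was highest for Rpl10l (128.7 against 0 to 2.85 CPM, 0.978) and Rpl39l (197 against 15.3 to 52.8 CPM, 0.793) and replicate 8 for Rpl22l1 (557 against 145 to 251 CPM, 0.741).

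Elsewhere, E3.5 replicate 1 was highest for Rpl5 (2009 against 337 to 1221 CPM, 0.471), E5.5 replicate 6 for Rpl10l (275 against 53.4 to 149 CPM, 0.569), and E4.5 replicate 1 was lowest for Rpl23a in PrE-like cells (75.4 against 104 to 114 CPM, 0.751). The endoderm against epiblast change of Rplp0 differed between E6.5 and E4.5 by -0.95 (log2, edgeR's test of the difference, adjusted p = 0.00946).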

How the results depend on the processing

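Alternatives on named cells, on clusters with few genes, on single plates and on embryos with both classes were chosen after seeing the data, as was the P9 against P8 fit. Recomputed counts of members called stayed within 1.5 times the reported one in 80 cases and moved further in 37 (114 and 16 with 1 embryo left out), and values of named members kept their direction and call in 269 cases and lost the call in 42 (353 and 29). With at least 5 cells per sum, which leaves 1 E4.5 epiblast-like embryo assumed to vary like the other groups, the counts were 0 (E4.5 epiblast against E3.5), 5 (PrE against E3.5), 0 (E5.5 against E4.5 epiblast), 1 (E6.5 endoderm against epiblast), 4 (E6.5 endoderm against PrE) and 0 (difference of lineage changes), and those with that lone embryo say nothing about stability. With at least 1 cell they were 0 (E5.5 against E4.5), 32 (E6.5 endoderm against epiblast) and 22 (against PrE). With single cells only, E5.5 against E4.5 gave 0. With plate P9 alone at E3.5 the counts were 12 and 2 and the share differences 4.57 (at the smallest exact p for 4 against 4) and 1.72 (epiblast and PrE). Library size alone gave 25 (E6.5 plates against E5.5), 2 (without against with plate names), 1 (PrE against epiblast), 26 (E6.5 endoderm against PrE) and 38 (P9 against P8). DESeq2 gave 20, 2 (without plate name against E5.5), 1 (PrE against epiblast) and 22 (E6.5 endoderm against PrE). Without the clusters with the fewest genes the counts were 30, 2, 5 (E6.5 endoderm against epiblast) and 23 (against PrE). Without E6.5 plate P2 they were 8, 2 and 5. E6.5 endoderm against epiblast gave 7 with RLE factors and 6 with Ward clustering, P9 against P8 gave 41 with TMM without the members, and E6.5 without against with plate names gave 1 higher without the E6.75 cells. PrE against epiblast gave 1 with E4.5 cells named one by one. With the embryo as a replicate block, PrE against epiblast gave 26 and E6.5 endoderm against epiblast 1, and 8 and 1 without the block in the same embryos. The cause of these changes was not tested beyond the fewer or other samples that each setting uses.

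The share of E6.5 embryos without plate name against E5.5 turned to -0.0492 with the mean of the cells' own shares, -0.920 with single cells, -0.148 with at least 1 cell and -0.0845 without the clusters with the fewest genes, and E5.5 against E4.5 to 0.0678 with cells named one by one. PrE against E3.5 was 2.30 with at least 5 cells and P9 against P8 2.92 with single cells (no overlap, at the smallest exact p for 4 against 3), both past no threshold. Shares that passed it were, for PrE against epiblast, -3.37 without the 50 most abundant other genes, -2.92 without Rplp0, -2.74 with own shares and -2.53 with at least 1 cell. For E6.5 endoderm against epiblast they were -2.69 with at least 1 cell, -2.33 without those clusters and -2.99 without plate P2. For endoderm against PrE they were -2.59 with own shares and -2.54 with at least 1 cell, and for E6.5 plates against E5.5 -2.07 without those clusters.

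Leaving out 1 embryo, the counts ran from 48 to 60 (E4.5 epiblast against E3.5), 21 to 44 (PrE against E3.5), 0 to 1 (E5.5 against E4.5, 0 without E4.5 replicate 3 or 5), 7 to 25 (E6.5 plates against E5.5), 0 to 0 (PrE against epiblast), 2 to 23 (E6.5 endoderm against epiblast), 5 to 22 (against PrE) and 16 to 38 (P9 against P8), and stayed at 1 (without plate name against E5.5, lineage difference) and 0 (without against with plate names). Share differences ran from 5.97 to 6.69, 3.02 to 4.14, -1.73 to -1.02, -1.81 to -0.985, -1.06 to 1.15 (without plate name against E5.5), 0.278 to 2.49 (against plates), -3.31 to -2.47 (PrE against epiblast), -2.95 to -2.13 (E6.5 endoderm against epiblast, adjusted p = 0.0476 in an exact permutation test without replicate 4), -3.12 to -1.9979 (against PrE, 0.0397 without E4.5 replicate 1) and 2.76 to 3.13 (P9 against P8, where 9 of 9 stayed without overlap at the smallest exact p that their numbers allow, 0.0179 or 0.0286, adjusted 0.0595 to 0.0714). Ward clustering left the E4.5 epiblast without a named cluster and gives no value there. Depth limits the sums of 3 to 5 cells most.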
